A study of Arabidopsis thaliana with 9 samples.

Results

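Transcript signals of 2 Arabidopsis thaliana genes that encode jasmonate-modifying enzymes, JMT and AT2G38240, were examined across 3 genotypes. JMT (locus AT1G19640, probe set 261150_at) encodes a methyltransferase that converts jasmonic acid to its methyl ester. AT2G38240 (probe set 267147_at) encodes a jasmonate hydroxylase of the 2-oxoglutarate-dependent dioxygenase family. Each had 1 probe set, assigned to no other gene, so they were 2 of the 13350 genes that a probe set of the array named alone. Both genes were chosen by name from the platform annotation and selected on their measured signals in the comparisons of these same arrays, which were already known. Their values are therefore given as a description, with standard errors and without p-values.

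The samples were 9 Affymetrix ATH1 arrays, 3 per genotype, of total RNA from all above-ground tissue of plants of 10 days, at growth stage 1.03. The plants were grown on soil at 22 °C under 16 h light and 8 h dark cycles and were collected 14 h after lights on. The HAP5 triple mutant carries T-DNA knock-outs of HAP5 genes, which encode NF-YC subunits of the CCAAT-binding NF-Y complex, and the labels place it in Col-0. The constans mutant line, labelled co-SAIL with a single stock code, is mutated in the gene of CONSTANS, a transcription factor of the photoperiod response, and the labels give no background for it. The wild type is labelled Col-1, so genotype and background cannot be told apart. Separate plants or cultures are not stated for arrays of one genotype, so errors and p-values cover the spread among arrays alone, and that spread may be technical. Precision is limited by the number of arrays.

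Jasmonates are lipid-derived hormones made from plastid fatty acids when leaves are wounded or attacked and during stamen development. Jasmonic acid becomes active once it is joined to isoleucine, and the conjugate brings the receptor COI1 together with JAZ repressors, which are then degraded so that MYC transcription factors can act. Enzymes that methylate or hydroxylate jasmonic acid itself divert it away from that conjugate. JMT belongs to the SABATH family of small-molecule methyltransferases, and methyl jasmonate is volatile. Hydroxylation of jasmonic acid by dioxygenases such as AT2G38240 yields a product that does not feed the active conjugate.

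The signals are linear MAS5 values, one per probe set and array, which the authors had scaled to the same trimmed mean on every array. JMT had signals of 52.8, 47.6 and 41.5 on wild-type arrays 1, 2 and 3. It had 25.3, 28.5 and 26.7 on the arrays of the HAP5 triple mutant, and 34.4, 24.8 and 22.2 on those of the constans line. Every wild-type array lay above every array of either mutant, and the mutants overlapped each other. That order, with the 3 wild-type arrays above the 6 mutant arrays, was met by 0.903% of the 14173 probe sets tested. The highest mutant signal, constans array 1 at 34.4, and the lowest wild-type signal, array 3 at 41.5, were the arrays nearest to each other.

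The mean JMT signal was 47.3 ± 5.66 (SD, n = 3) in wild type, 26.9 ± 1.57 (SD, n = 3) in the HAP5 triple mutant and 27.1 ± 6.39 (SD, n = 3) in the constans line. On the log2 scale the HAP5 triple mutant differed from wild type by -0.81 ± 0.21 (SE), or 1.75-fold lower between geometric means. The constans line differed from wild type by -0.82 ± 0.21 (SE), or 1.77-fold lower. Both differences use the same 3 wild-type arrays, so they are not separate observations of wild type. Between the mutants the log2 difference of JMT was 0.01 ± 0.21 (SE), triple mutant minus constans line. In order of level, wild type stood first, and the mutants after it did not differ beyond their spread.

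JMT did not pass adjusted p under 0.05 in limma, a linear model fitted to all tested probe sets, in any of the 3 comparisons, and in the alternative fits it passed only for the constans line against wild type without constans array 1. This threshold was passed by 13 probe sets between the HAP5 triple mutant and wild type (0.0917% of those tested), by 198 between the constans line and wild type (1.4%), and by 479 between the mutants (3.38%). By size of the difference JMT ranked 137 of 14173 in the HAP5 triple mutant against wild type and 319 in the constans line against wild type. The JMT signal was above 18.6, the level that a genotype mean had to reach for a probe set to be tested, on all 9 arrays. The spread of JMT on the log2 scale was 0.08 (SD) in the HAP5 triple mutant, 0.17 in wild type and 0.33 in the constans line, where array 1 stood apart from the other two.

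AT2G38240 had signals of 53.5, 75.8 and 90.0 on constans arrays 1, 2 and 3. Its signals were 22.5, 14.7 and 26.6 in the HAP5 triple mutant and 17.6, 3.78 and 15.6 in wild type. All 3 constans arrays lay above the 6 other arrays, an order that 4.06% of the tested probe sets met. The HAP5 triple mutant and wild type overlapped, with triple mutant array 2 below wild-type arrays 1 and 3. Wild-type array 2, at 3.78, was the lowest of all.

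**Figure D1:**
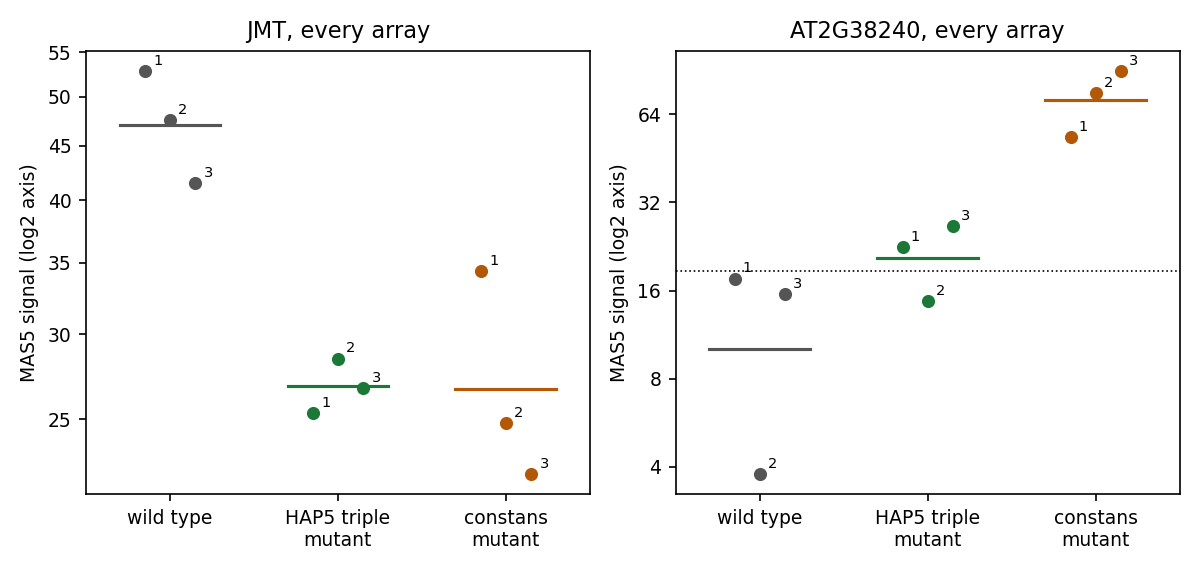
MAS5 signal of JMT (left) and AT2G38240 (right) on each of the 9 arrays, on log2 axes. Points are arrays with their replicate number, bars are geometric means of 3 arrays, and the dotted line is the signal of 18.6 used to select probe sets for testing. The wild-type arrays stand above both mutants for JMT, from 41.5 to 52.8, and the constans arrays stand above both other genotypes for AT2G38240, from 53.5 to 90.0.

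The mean AT2G38240 signal was 73.1 ± 18.4 (SD, n = 3) in the constans line, 21.3 ± 6.03 (SD, n = 3) in the HAP5 triple mutant and 12.3 ± 7.46 (SD, n = 3) in wild type. The log2 difference between the constans line and wild type was 2.82 ± 0.46 (SE), a 7.06-fold ratio of geometric means. By size of the difference, in either direction, it ranked 4 of 14173 in that comparison. AT2G38240 was among the 198 probe sets called there (1.4% of those tested). That call is one of the values for which the gene was taken up, and nothing is read from it. The HAP5 triple mutant differed from the constans line by -1.79 ± 0.46 (SE), 3.46-fold lower. AT2G38240 was not among the 479 called in that comparison. Of 18 alternative fits it was called there in 7 and not called in 11, and nothing is read from these counts either. Against wild type the HAP5 triple mutant differed by 1.03 ± 0.46 (SE), 2.04-fold, without passing the threshold.

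That last difference depended on wild-type array 2, and without this array the log2 difference of AT2G38240 between the HAP5 triple mutant and wild type was 0.32 ± 0.29 (SE), and between the constans line and wild type it was 2.11 ± 0.29 (SE). On 4 of the 9 arrays, the 3 of wild type and triple mutant array 2, the AT2G38240 signal was below 18.6, and the table holds no detection calls. The wild-type level is thus that of a dim probe set, and the fold against it is imprecise. In order of level, the constans line stood first, followed by the HAP5 triple mutant and wild type, and these last did not differ beyond their spread. The spread on the log2 scale was 1.23 (SD) in wild type, 0.44 in the HAP5 triple mutant and 0.38 in the constans line.

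The genes thus differed in which genotype stood apart from the other two. For JMT it was wild type, with both mutants lower by nearly the same amount. For AT2G38240 it was the constans line, and the arrays of the HAP5 triple mutant overlapped those of wild type. On the log2 scale the triple mutant differed by 1.03 ± 0.46 (SE) from wild type and by -1.79 ± 0.46 (SE) from the constans line. Neither of these differences passed the threshold. In the constans line the arrays also ran in opposite order for the 2 genes, since array 1 was the highest of the 3 for JMT and the lowest for AT2G38240, and array 3 was the lowest for JMT and the highest for AT2G38240.

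The arrays differed widely in a control, the probe set of 25S ribosomal RNA. Its signal was 42.4, 16.9 and 15.9 in the HAP5 triple mutant, 56.5, 1152 and 1079 in the constans line, and 22.6, 108 and 418 in wild type. In wild type the JMT signal was lower on the arrays with more 25S signal, and in the constans line the array with least 25S signal, array 1, had the highest JMT signal. The part of the 25S signal in the JMT values was not tested. At a low 25S signal, wild-type array 1 had a JMT signal of 52.8 with 25S at 22.6, and the 3 triple mutant arrays had JMT signals of 25.3 to 28.5 with 25S at 15.9 to 42.4. Without the 3 arrays whose 25S signal exceeded 400, the JMT difference was -0.90 ± 0.18 (SE) between the HAP5 triple mutant and wild type. In the same fit it was -0.55 ± 0.24 (SE) between the constans line and wild type, with a single constans array left, which is assumed to vary like the other groups. With the log2 25S signal as a covariate, the JMT differences were -1.04 ± 0.21 (SE) for the HAP5 triple mutant and -0.60 ± 0.20 (SE) for the constans line against wild type, and -0.44 ± 0.27 (SE) for the HAP5 triple mutant minus the constans line.

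For AT2G38240, constans array 1, with a 25S signal of 56.5, had a signal of 53.5, above all 6 arrays of the other genotypes. Wild-type array 3, with a 25S signal of 418, had an AT2G38240 signal of 15.6. The part of the 25S signal in the AT2G38240 values was not tested. The log2 difference between the constans line and wild type was 2.71 ± 0.73 (SE) without the 3 arrays of high 25S signal and 2.70 ± 0.53 (SE) with the 25S covariate. In the first of these fits, and in a fit with no filter on dim probe sets, AT2G38240 did not pass the threshold.

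**Figure D2:**
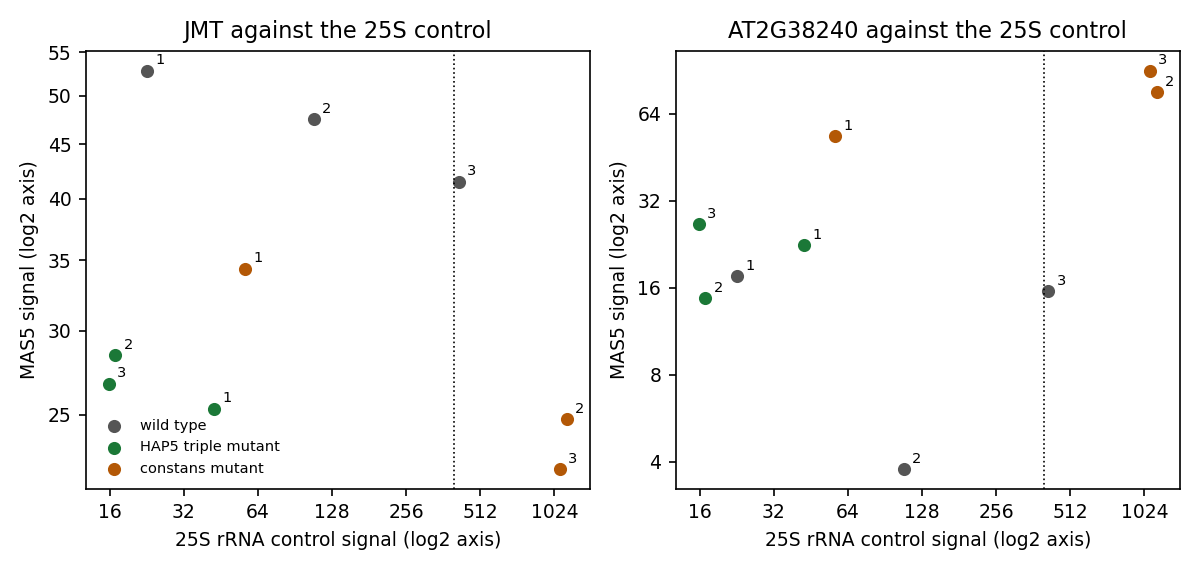
MAS5 signal of JMT (left) and AT2G38240 (right) against the signal of the 25S ribosomal RNA control on the same array, both on log2 axes, with replicate numbers beside the points and a dotted line at a 25S signal of 400. Constans arrays 2 and 3 have 25S signals of 1152 and 1079, and constans array 1, at 56.5, has an AT2G38240 signal of 53.5.

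The nearest relatives of AT2G38240 that the annotation named were AT5G05600, AT3G55970 (JRG21, jasmonate-regulated gene 21) and AT3G11180, which encode dioxygenases of the same jasmonate hydroxylase group. AT5G05600 had signals of 117, 102 and 121 in the HAP5 triple mutant, 118, 72.3 and 159 in the constans line, and 70.7, 95.0 and 54.0 in wild type. The HAP5 triple mutant lay above wild type on all arrays, an order whose share over all tested probe sets was not counted. The constans line overlapped wild type through its array 2. The log2 difference of AT5G05600 was 0.66 ± 0.25 (SE) for the HAP5 triple mutant against wild type (limma adjusted p = 0.655) and 0.63 ± 0.25 (SE) for the constans line against wild type (adjusted p = 0.319). Between the mutants it was 0.03 ± 0.25 (SE) with adjusted p = 0.965.

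JRG21 had signals of 21.9, 7.81 and 97.8 in the constans line, 16.2, 10.7 and 12.6 in the HAP5 triple mutant, and 1.68, 18.9 and 8.10 in wild type. Its groups overlapped, and constans array 3 alone stood far above the others. The log2 difference of JRG21 between the constans line and wild type was 2.01 ± 0.85 (SE), which did not pass (limma adjusted p = 0.377). Those of the HAP5 triple mutant were 1.03 ± 0.85 (SE) against wild type (adjusted p = 0.906) and -0.98 ± 0.85 (SE) against the constans line (adjusted p = 0.585). JRG21 reached the level for testing through the constans mean alone, which array 3 carried, and its signal was below 18.6 on 6 of the 9 arrays, so its test in that line rests partly on that selection. AT3G11180 was too dim to be tested, with signals from 0.423 to 9.00 over the 9 arrays. Constans array 3 had the highest signal of the 9 arrays for AT2G38240, AT5G05600 and JRG21 alike.

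The 12 dioxygenase genes listed as relatives also included AT3G13610, a feruloyl-CoA hydroxylase of coumarin synthesis, which was too dim to be tested. Of the 12, 4 had a named probe set and 2 of these were tested. No tested relative passed in any comparison, beside background shares of 0.0917%, 1.4% and 3.38% in the order given above. An unadjusted p under 0.05 in limma was met by 6.51% of all tested probe sets between the HAP5 triple mutant and wild type. The share was 11.3% between the constans line and wild type and 17.7% between the mutants. Of the relatives, the first comparison had AT5G05600, the second had AT5G05600 and JRG21, and the third had neither. JRG21 was tested through its constans mean alone, so its place in the second rests partly on that selection.

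Of 23 other SABATH methyltransferase genes, 15 had a named probe set and 3 were bright enough to be tested. None of these 3 passed in limma in any comparison, beside the same background shares of 0.0917%, 1.4% and 3.38%. At an unadjusted p under 0.05 there was 1 of the 3, AT3G21950 between the constans line and wild type, where the share over all tested probe sets was 11.3%. AT3G21950 had signals of 56.4, 54.4 and 61.6 in wild type, 49.0, 50.4 and 39.9 in the HAP5 triple mutant and 45.2, 45.9 and 36.6 in the constans line. As for JMT, every wild-type array lay above every mutant array, an order that 0.903% of the tested probe sets met. The log2 differences of AT3G21950 were -0.31 ± 0.16 (SE) for the HAP5 triple mutant (adjusted p = 0.820) and -0.44 ± 0.16 (SE) for the constans line (adjusted p = 0.290), each against wild type, and 0.12 ± 0.16 (SE) between the mutants (adjusted p = 0.737). AT4G36470 and AT5G38780 had log2 differences between -0.15 and 0.17 in the 3 comparisons.

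BSMT1, which encodes the methyltransferase that makes methyl benzoate and methyl salicylate, was too dim by its genotype means to be tested. Its signals were 13.1, 2.01 and 74.9 in the constans line, 5.84, 4.63 and 4.82 in wild type, and 0.359, 0.247 and 0.364 in the HAP5 triple mutant. The HAP5 triple mutant signals were all below 1.03, the lowest value kept on the log2 scale, so no fold is given against them. Constans array 3 was again the highest.

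**Figure D3:**
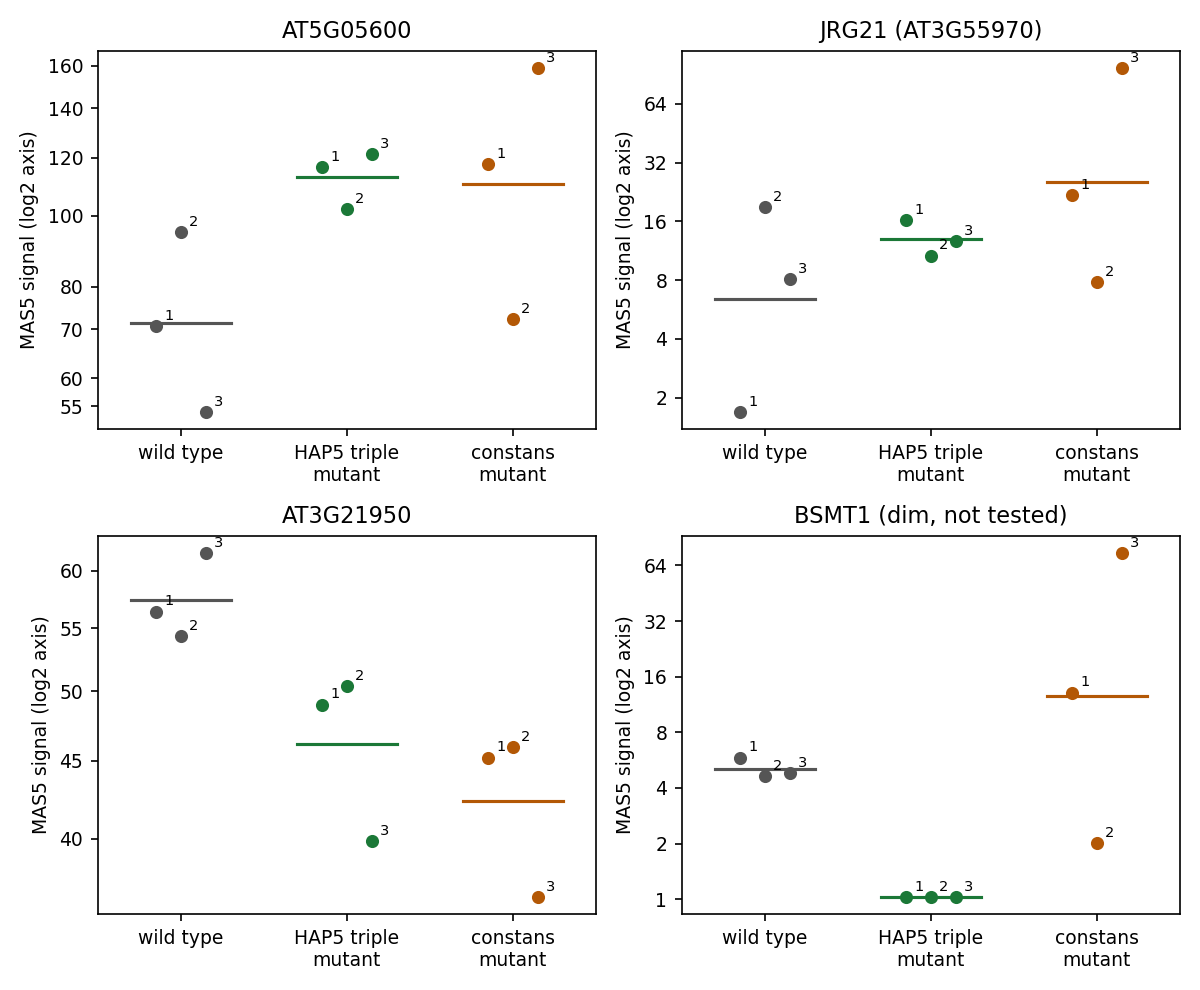
MAS5 signal on each array, on log2 axes, of the hydroxylase relatives AT5G05600 and JRG21 and of the SABATH methyltransferases AT3G21950 and BSMT1, with signals below 1.03 set to that value. Points carry replicate numbers and bars are geometric means of 3 arrays. Constans array 3 is the highest array for AT5G05600, JRG21 and BSMT1, at 159, 97.8 and 74.9. The wild-type arrays of AT3G21950 lie above all mutant arrays, an order that 0.903% of the tested probe sets met.

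A list of 81 genes of jasmonate synthesis, modification, perception and response, without the 2 members, was looked up, of which 11 had a named probe set and 8 were tested. It includes the hydroxylase relatives, and the tested modification genes are AT5G05600 and JRG21 again. None of the 8 passed in limma in any comparison, and none passed in any alternative fit. At an unadjusted p under 0.05 there were 2 of the 8 between the HAP5 triple mutant and wild type, 2 between the constans line and wild type and 1 between the mutants, beside shares of 6.51%, 11.3% and 17.7% over all tested probe sets. The 2 of the constans line are AT5G05600 and JRG21, already described. JRG21 reached the level for testing through its constans mean alone, so its place in that count rests partly on that selection. The median log2 difference over the 8 was 0.58 for the HAP5 triple mutant and 0.16 for the constans line against wild type, and 0.09 between the mutants, beside medians of 0.01, -0.00 and -0.00 over all tested probe sets. Against wild type the HAP5 triple mutant had a higher mean for 7 of the 8 and a lower mean for 1. The share higher was 87.5%, beside 51.4% of all tested probe sets. Its largest differences were PDF1.2b (1.12 ± 0.94 SE), JRG21 (1.03 ± 0.85 SE) and PDF1.2 (0.79 ± 0.78 SE), each little above its standard error. The 2 at an unadjusted p under 0.05 in limma were AT5G05600 (0.66 ± 0.25 SE) and OPCL1 (0.50 ± 0.15 SE). The probe set of PDF1.2b may also detect PDF1.2, so the 8 are not independent. Most genes of the pathway, among them the receptor COI1 and the JAZ repressors, had no named probe set and were not analysed here. That is a limit of the annotation used, which gave no gene name for 8730 of the 22746 probe sets. The 8 tested genes therefore do not stand for the pathway.

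Among synthesis genes, OPCL1 encodes a ligase that attaches coenzyme A to the jasmonate precursor before its side chain is shortened in peroxisomes. OPCL1 had signals of 162, 166 and 171 in the HAP5 triple mutant, 136, 136 and 113 in the constans line and 94.8, 149 and 115 in wild type. All triple mutant arrays lay above all others, and the constans line and wild type overlapped. The share of all tested probe sets with that order was not counted, so nothing is read from it. The log2 difference of OPCL1 was 0.50 ± 0.15 (SE) for the HAP5 triple mutant against wild type (limma adjusted p = 0.494) and 0.38 ± 0.15 (SE) for the HAP5 triple mutant minus the constans line (adjusted p = 0.206). AIM1, which encodes an enzyme of peroxisomal beta-oxidation, had log2 differences of 0.05 ± 0.11 (SE) and 0.14 ± 0.11 (SE) for the HAP5 triple mutant and the constans line against wild type.

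Of the signalling genes, MYC3 and MYC4, which encode bHLH activators released from JAZ repressors, had log2 differences between -0.11 and 0.15 in the 3 comparisons. Their signals ran from 98.7 to 136 for MYC3 and from 25.5 to 40.1 for MYC4 over the 9 arrays, with the genotypes overlapping in each comparison.

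Of the response genes, PDF1.2 encodes a plant defensin of the jasmonate and ethylene branch. It had signals of 20.6, 362 and 41.6 in wild type, 118, 50.2 and 271 in the HAP5 triple mutant and 62.6, 98.7 and 74.5 in the constans line. The genotypes overlapped, and the log2 differences of 0.79 ± 0.78 (SE) for the HAP5 triple mutant and 0.19 ± 0.78 (SE) for the constans line against wild type did not pass (limma adjusted p = 0.919 and 0.962). Its highest array, wild-type array 2, was the lowest for AT2G38240. PDF1.2b, a near-identical copy read by a probe set that may detect both genes, followed it with 16.7, 348 and 19.5 in wild type. The thionin gene THI2.1 was too dim to be tested, with signals from 2.24 to 16.3.

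**Figure D4:**
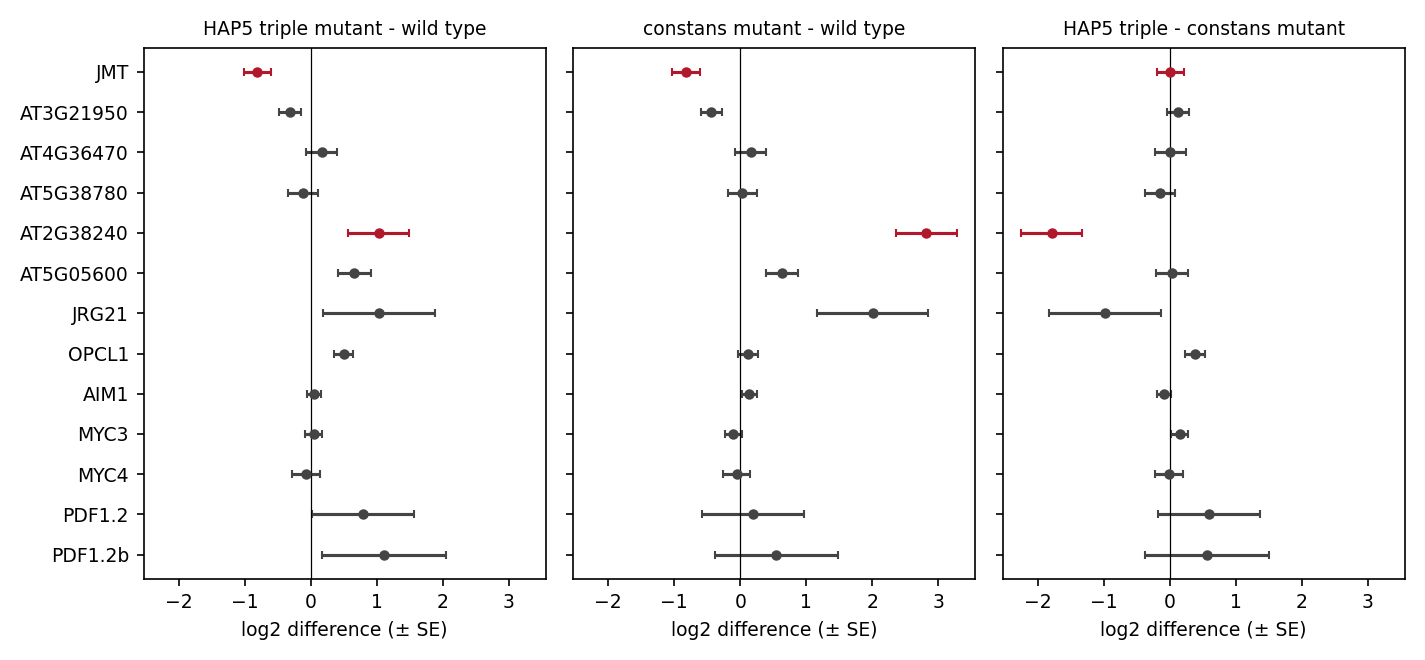
Log2 differences (points) with their standard errors (bars) for JMT and AT2G38240 (red) and for the 11 other tested genes of the SABATH, hydroxylase and jasmonate lists (grey), in the 3 comparisons on one common axis. AT2G38240 at 2.82 in the constans line against wild type was the only difference shown that passed the threshold. That call is one of the values for which the gene was taken up, and nothing is read from it. JMT, at -0.81 and -0.82 against wild type, and the 11 other genes passed in none.

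For each gene, the 5 probe sets of a single named gene with the most similar profile were taken among 7690. Likeness was the root mean square difference between log2 profiles over the 9 arrays, each minus its own mean. For JMT the nearest were AT5G45670 (0.22), AT5G47050 (0.24), AT1G13650 (0.24), AT5G40270 (0.24) and AT5G17700 (0.25), against a root mean square of 0.42 for JMT around its own mean. AT1G13650 had signals of 54.2 to 59.6 in wild type, 30.8 to 43.4 in the HAP5 triple mutant and 24.1 to 37.8 in the constans line. Wild type was clear of both mutants there and for AT5G47050 and AT5G17700. For AT5G45670 it overlapped the constans line (183 to 254 against 140 to 188), and for AT5G40270 it overlapped the HAP5 triple mutant. For AT2G38240 the nearest were AT5G25440 (0.74), AT5G03390 (0.75), AT5G05300 (0.76), AT2G28400 (0.80) and AT1G64380 (0.82), against 1.33 around its own mean. AT5G25440 had signals of 85.8 to 124 in the constans line, 32.2 to 49.9 in the HAP5 triple mutant and 27.5 to 52.6 in wild type. The constans line was clear of both other genotypes there and for AT5G05300 and AT1G64380. For AT5G03390 it overlapped the HAP5 triple mutant (20.5 to 34.8 against 21.0 to 26.8), and wild type lay below both (4.47 to 15.7). For AT2G28400 it also overlapped the HAP5 triple mutant (16.2 to 25.7 against 9.80 to 18.6). The genes were picked for likeness to JMT or AT2G38240, so a shared order of genotypes follows from that choice. These differences are descriptions of 9 arrays that share the 3 genotypes and the scaling.

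In gene order, AT1G19650 is the next protein-coding gene after JMT. It had signals of 28.4, 23.0 and 41.6 in wild type, 28.9, 26.3 and 33.3 in the HAP5 triple mutant and 30.3, 33.6 and 29.1 in the constans line. The genotypes overlapped, with log2 differences of -0.03 ± 0.23 (SE) for the HAP5 triple mutant (limma adjusted p = 0.993) and 0.04 ± 0.23 (SE) for the constans line (adjusted p = 0.972) against wild type. AT2G38250, the next after AT2G38240, was too dim to be tested, with signals from 0.935 to 7.64.

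The tissue label was checked with markers. The Rubisco activase gene RCA, which is expressed in green tissue, had signals of 4944 to 6641 on the 9 arrays, and none of the 3 tested shoot markers passed for either mutant against wild type. Between the mutants the antenna gene LHCB4.2 was lower in the HAP5 triple mutant (log2 difference -0.43 ± 0.10 SE, limma adjusted p = 0.0300). Of 7 root markers, 2 had a named probe set. The root beta-glucosidase gene PYK10 had signals of 174 to 222 in the HAP5 triple mutant, 249 to 286 in the constans line and 193 to 215 in wild type, and the root hair gene EXPA7 had 0.632 to 15.0 over the 9 arrays. PYK10 thus had its highest mean in the genotype in which AT2G38240 was high. Its log2 difference was 0.37 ± 0.11 (SE) for the constans line against wild type (limma adjusted p = 0.171). It was -0.47 ± 0.11 (SE) for the HAP5 triple mutant minus the constans line (adjusted p = 0.0382). The shoot marker LHCB4.2 also had its highest mean there, at 0.26 ± 0.10 (SE) for the constans line against wild type (adjusted p = 0.329). Between the mutants, 3.38% of all tested probe sets were called. The part of PYK10 or LHCB4.2 in the AT2G38240 values was not tested. In bulk tissue, fewer cells of a type and less RNA per cell cannot be told apart. None of the 7 floral organ markers had a named probe set.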

How the data were processed

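The deposited values are intensity values, linear MAS5 signals that the authors scaled per array. Per the submitters' processing notes, the tools were MAS5 and GCOS, with no version, and the genome build is not given in the sources used here. In the file, the 2% trimmed mean was 100 on all 9 arrays. Arrays have no sequencing depth.

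The 64 control probe sets were left out. Signals below 1.03, the pooled 10th percentile, were raised to that value before taking log2, and arrays were not normalized again. Testing required a geometric mean of 18.6 in 1 genotype or more, which is the 40th percentile of all genotype means, and left 14173 of 22746. All 9 arrays entered one fit in limma 3.58.1 (R 4.3.3; lmFit, eBayes with an intensity trend, 6 residual degrees of freedom), with Benjamini-Hochberg adjustment over all tested probe sets within a comparison and a threshold of 0.05. The fit was tested on simulated data. Tables were made with pandas 2.3.3. Gene names came from the platform annotation, updated by gene identifier through the TAIR10.1 gene table. The positions in that gene table gave the gene order. Of the probe sets, 13513 had 1 gene, 503 had several and 8730 had none.

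The members and gene lists were chosen with earlier results of these data known. Of each list, genes past the threshold were to be named, or otherwise up to 3 with the largest difference, and for each member the 5 genes most like it. AT3G11180, AT3G13610, BSMT1, THI2.1, EXPA7 and the neighbouring genes fall outside that rule and were picked with their values in view. No sequence table was used here. Arrays with the same replicate number were not treated as pairs, since the labels name no batch. The 9 correlations of their deviations from the genotype means ran from -0.038 to 0.227, and 3 were over 0.1. These correlations were not set against a reference, so they do not settle whether the arrays are paired. A fit with a replicate block is among the alternatives.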

Additional observations from a re-analysis of the deposited data

How the results depend on the processing

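Signal over background limits the values of AT2G38240 in wild type, since the table has no detection calls and 4 of the 9 arrays were below 18.6. The alternatives were quantile normalization, median centring, a pseudocount of 1.03 in place of the lowest value allowed, no filter on dim probe sets, no trend, only the 2 genotypes compared, a replicate block, the 25S covariate, each array left out in turn, and the 3 arrays of high 25S signal left out together. The count of jasmonate pathway probe sets past the threshold was 0 in all 3 comparisons and all 18 alternatives. The 3 AT2G38240 differences kept their direction in all 18, from 2.11 to 3.22 (constans line against wild type), 0.32 to 1.43 (HAP5 triple mutant against wild type) and -2.0 to -1.37 (HAP5 triple mutant minus constans line). Its call in the constans line against wild type ended in 2 of the 18, with no filter and when the 3 arrays of high 25S signal were dropped. Between the mutants it passed in 7 of 18, and against wild type the HAP5 triple mutant passed in 0.

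JMT kept its direction against wild type in all 18, from -1.04 to -0.73 in the HAP5 triple mutant and from -1.004 to -0.55 in the constans line, the last without the 3 arrays of high 25S signal. It passed in 1 fit, the constans line against wild type without constans array 1, where the difference was -1.004. Leaving out single arrays gave -0.90 to -0.73 and -1.004 to -0.69. Between the mutants the near-zero JMT difference changed sign with the setting, at -0.44 with the 25S covariate and -0.36 without the 3 arrays, and from -0.12 to 0.19 with single arrays left out. With the 25S covariate the HAP5 triple mutant differed from wild type by -1.04. The cause was not tested.

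The background counts depended more on the setting. Between the HAP5 triple mutant and wild type 13 became 8 with quantile normalization, 8 with median centring, 4 with no trend, 28 with only the 2 genotypes, 20 with the replicate block, 8 with the 25S covariate, 27 without the 3 arrays and 5 to 26 without single arrays (5 without HAP5 triple mutant array 2 or wild-type array 1, 7 without HAP5 triple mutant array 3 or wild-type array 3, 26 without constans array 1). Between the constans line and wild type 198 became 56 with no filter, 102 with no trend, 37 without the 3 arrays and 94 to 226 without single arrays (94 without wild-type array 2, 98 without constans array 3). Between the mutants 479 became 185 with no filter, 306 with no trend, 132 with the 25S covariate, 135 without the 3 arrays and 207 to 927 without single arrays (270, 219 and 281 without HAP5 triple mutant arrays 1, 2 and 3, and 927, 289 and 207 without constans arrays 1, 2 and 3). The replicate block, which cannot move a difference in a balanced design, added a call on AT2G38240 between the mutants (-1.79 with or without it), and 4 of 9 arrays were closest in their deviations to an array of their own number.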
